A study of Mus musculus with 6 samples.

Results

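The Tribbles family of the mouse comprises the 3 pseudokinase genes Trib1, Trib2 and Trib3, which were found by their Ensembl identifiers among 49671 gene rows of a table of read counts. Whole testes were profiled by RNA-seq in 3 KO mice (labelled 3xAnkrd31-/-) and 3 WT mice (labelled 3xAnkrd31+/+). All 6 were C57BL/6J and 12 days post-partum, when germ cells of the first wave are in early meiotic prophase. The product of Ankrd31 has ankyrin repeats and works with the proteins that cut DNA to start meiotic recombination. The labels name no promoter, Cre or clone, and do not say whether animals were littermates, so p-values measure the spread between these libraries. The family was chosen by measured values of these libraries, namely the CPM of its members in KO against WT with libraries of the same replicate number paired, a contrast in which Trib2 was among the genes called. The difference between genotypes is therefore given for the 3 genes as a description, with no test.

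Tribbles proteins have the fold of a protein kinase but bind ATP poorly or not at all, and they act as scaffolds. Their carboxy-terminal tail recruits the ubiquitin ligase COP1, which then marks proteins held by the pseudokinase domain, such as C/EBP transcription factors, for destruction. They also bind kinases of the MAPK cascade and AKT. The family is named after the Drosophila gene tribbles, whose product holds back cell division by promoting turnover of String, a CDC25 phosphatase. In mammals TRIB1 is best known from myeloid cells and liver lipid metabolism, TRIB2 from leukaemia, and TRIB3 from the response to endoplasmic reticulum stress and amino acid shortage.

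The genes lie on different chromosomes of mm10. Trib1 (ENSMUSG00000032501) spans chr15:59648350-59656550 on the plus strand. Trib2 (ENSMUSG00000020601) spans chr12:15791727-15816877 on the minus strand. Trib3 (ENSMUSG00000032715) spans chr2:152337422-152344032 on the minus strand. Their exons in the table sum to 5699, 4290 and 2125 bases. None of these exons overlapped an exon of another gene of the table on either strand, and no stretch of 50 bases was shared between transcripts of different members, so reads of one member were unlikely to be counted for another.

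The coding sequences of GENCODE M21 were compared to show how far the members have diverged. Over aligned coding bases, Trib1 and Trib2 were 67.5% identical, Trib1 and Trib3 66%, and Trib2 and Trib3 62.9%. The stretch that encodes the COP1-binding motif of the tail is shown because it is the part of the tail that recruits the ligase. Capitals mark the 5 codons of the core motif, found once in each coding sequence by translation.
Trib1: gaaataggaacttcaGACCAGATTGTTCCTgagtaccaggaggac
Trib2: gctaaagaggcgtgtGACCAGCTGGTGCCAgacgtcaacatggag
Trib3: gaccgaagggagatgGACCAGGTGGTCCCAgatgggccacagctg
These are coding bases 1048 to 1092 of 1119 in Trib1, 961 to 1005 of 1032 in Trib2 and 982 to 1026 of 1065 in Trib3, counted from the start codon.

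The RefSeq promoter windows of GRCm38.p6, from 250 bases before to 50 after the start, are shown for Trib2, the member with the lower KO level in every pair, and for Trib3, a textbook target of the stress factors ATF4 and CHOP. They are chr12:15816736-15817035 (minus strand) and chr2:152344011-152344310 (minus strand). Capitals mark TGATGNAA, the core of the composite element bound by ATF4 with C/EBP factors, searched on both strands.
Trib2: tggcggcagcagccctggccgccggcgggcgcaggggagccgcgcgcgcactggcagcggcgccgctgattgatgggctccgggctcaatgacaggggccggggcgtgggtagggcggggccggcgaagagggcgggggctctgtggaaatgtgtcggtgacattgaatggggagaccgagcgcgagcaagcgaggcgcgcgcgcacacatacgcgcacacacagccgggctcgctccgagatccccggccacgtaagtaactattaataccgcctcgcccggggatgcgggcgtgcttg
Trib3: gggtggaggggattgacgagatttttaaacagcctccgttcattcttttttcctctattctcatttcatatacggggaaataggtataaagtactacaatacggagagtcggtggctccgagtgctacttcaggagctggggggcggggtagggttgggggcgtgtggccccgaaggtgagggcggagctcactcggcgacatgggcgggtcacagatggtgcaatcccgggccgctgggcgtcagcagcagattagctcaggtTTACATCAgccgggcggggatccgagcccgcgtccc
The Trib3 window held 1 match, on the strand opposite to the gene and within the 50 bases after the start. The Trib2 window held 0. Of 32851 promoter windows, 3.97% held at least 1 match, so the match is uncommon and is a description of letters only. The Trib2 window was 71.0% G or C and the Trib3 window 58.3%, against a median of 52.7% over all windows.

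Trib2 was the most abundant member in every library, Trib1 the second and Trib3 the third. Levels of one gene are given as CPM, its counts scaled to an effective library of 1000000, and levels between genes as RPKM, the CPM per kilobase of exon. Trib2 averaged 15 ± 1.90 RPKM in KO testes and 19 ± 1.92 RPKM in WT testes (SD, n = 3 each). Trib1 averaged 5.0 ± 0.151 RPKM in KO testes and 4.85 ± 0.241 RPKM in WT testes. Trib3 averaged 2.04 ± 0.0642 RPKM in KO testes and 2.40 ± 0.604 RPKM in WT testes. Over the 6 libraries, 75.0% of the 18040 tested genes lay below Trib2, 45.3% below Trib1 and 31.3% below Trib3.

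The order of the 3 levels held beyond the spread between libraries. On the log2(RPKM + 0.1) scale Trib2 exceeded Trib1 by 1.75 ± 0.26 (SD, n = 6; 3.36-fold), with single libraries between 1.40 and 2.09. Trib2 exceeded Trib3 by 2.88 ± 0.19 (7.38-fold), with single libraries between 2.67 and 3.19. Trib1 exceeded Trib3 by 1.13 ± 0.29 (2.2-fold), with single libraries between 0.63 and 1.43. In an exact two-sided sign-flip permutation test over the 6 libraries, each of the 3 differences had p = 0.0312, also after Benjamini-Hochberg adjustment over the 3, which is the smallest p that 6 libraries allow. That test takes the libraries as independent; with the 3 same-number pairs as units, each p was 0.25, the smallest that 3 pairs allow. The order was the same in 6 of 6 libraries. The summed exon lengths of the table enter these ratios, and which transcripts the testis uses was not determined; without length, Trib1 exceeded Trib3 by 2.57 on the log2 scale.

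**Figure D1:**
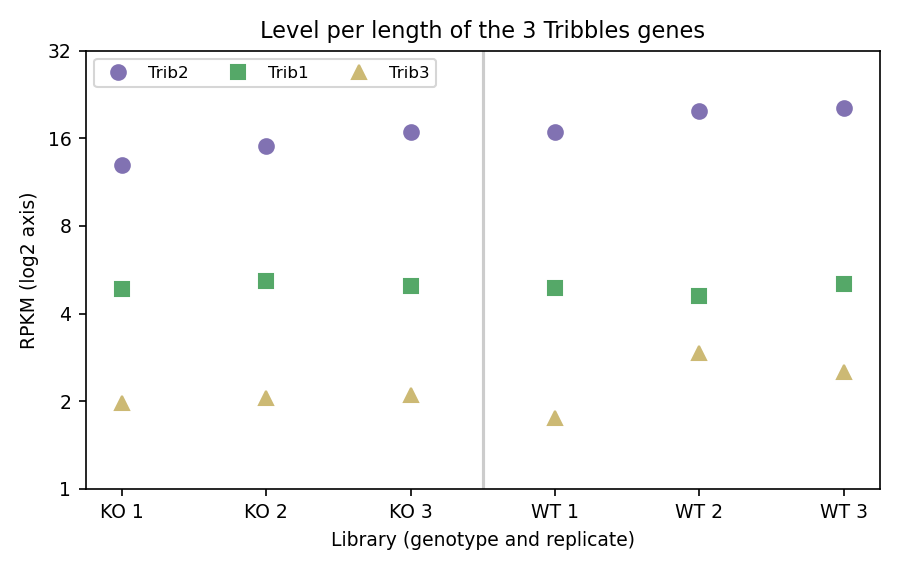
Level of each Tribbles gene in RPKM (log2 axis) in the 3 KO libraries on the left and the 3 WT libraries on the right. Trib2 lies between 13.0 and 20.3 RPKM, Trib1 between 4.59 and 5.17, and Trib3 between 1.75 and 2.94, and the 3 bands do not overlap.

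Trib2, whose product binds COP1 and MAPK kinases and promotes turnover of C/EBP factors, was lower in the KO than in the WT library of the same number in each pair. It had 55.96, 64.74 and 72.27 CPM in KO replicates 1, 2 and 3, and 71.90, 85.10 and 87.06 CPM in WT replicates 1, 2 and 3. The highest KO library, replicate 3, lay just above the lowest WT library, replicate 1, so the groups overlapped by that 1 pair of libraries; 3.5% of all tested genes had every KO library under every WT library. The means were 64.3 ± 8.16 CPM in KO testes and 81.4 ± 8.24 CPM in WT testes (SD, n = 3 each), which puts the KO mean at 79.1% of the WT mean. The log2 ratio was -0.36, -0.39 and -0.27 in pairs 1, 2 and 3.

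The fitted log2 fold change of Trib2 was -0.34 ± 0.11 (SE), and -0.34 ± 0.05 with the replicate number as a block. Of all tested genes, 14.7% were lower in KO in 3 of 3 pairs, a background beside which the count for Trib2 carries nothing, because the pairs chose it. Within each genotype the replicate 1 library held the lowest Trib2 level. The coefficient of variation was 12.7% in KO and 10.1% in WT libraries. Counting error alone gives 2.66% and 2.37% at each group's own mean count (1602 counts over all 6 libraries). The residual variation in the edgeR fit (biological coefficient of variation) was 9.65% without the block and 4.75% with it.

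The paired contrast of KO against WT, by which the family was chosen, is the one that edgeR's blocked fit tests. In that fit 8 of 18040 genes were called (0.0443%) at an adjusted p under 0.05. Ankrd31 and Trib2 were the 2 genes lower in KO and 6 were higher. The unblocked edgeR fit gave 0 calls among 18040 genes (0%) and 374 genes whose unadjusted p was under 0.05, while DESeq2 called 2 and limma voom 0. Trib2 was called in 4 of 19 alternative fits, namely with the block in edgeR, DESeq2 and limma voom and in the blocked fit without pair 2. It was not called in the blocked fit with a correction for GC content, nor in the blocked fits without pair 1 or without pair 3. Its log2 fold change lay between -0.43 and -0.25 over the 19. These fits reuse the values that chose Trib2, so its calls and its sign in them add no support.

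Trib1, whose product brings C/EBPα to COP1, stood at almost the same level in all libraries. It had 27.78, 29.44 and 28.25 CPM in KO replicates 1, 2 and 3, and 27.89, 26.17 and 28.88 CPM in WT replicates 1, 2 and 3. The groups overlapped throughout, and the KO mean was 103.0% of the WT mean. The means were 28.5 ± 0.859 CPM in KO testes and 27.6 ± 1.37 CPM in WT testes (SD, n = 3 each). The fitted log2 fold change was 0.04 ± 0.08 (SE), and the pair ratios were -0.01, 0.17 and -0.03. The coefficient of variation between libraries was 3.01% in KO and 4.96% in WT. This was close to the 3.99% and 4.06% that counting alone gives at each group's own mean count (about 617 counts over all 6 libraries).

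Trib3, whose product binds AKT and is induced through ATF4 and CHOP, had few reads and varied mainly among WT libraries. It had 4.189, 4.350 and 4.460 CPM in KO replicates 1, 2 and 3, from 92, 95 and 99 counts. It had 3.713, 6.245 and 5.350 CPM in WT replicates 1, 2 and 3, from 82, 142 and 113 counts. The KO libraries lay close together inside the WT range, with WT replicate 1 below all of them and WT replicates 2 and 3 above. The 95% counting intervals of WT replicate 1 (2.95 to 4.61 CPM) and WT replicate 2 (5.26 to 7.36 CPM) did not overlap. Such exact Poisson intervals cover counting error only.

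The Trib3 means were 4.33 ± 0.136 CPM in KO testes and 5.10 ± 1.28 CPM in WT testes (SD, n = 3 each). The fitted log2 fold change was -0.24 ± 0.19 (SE), and the pair ratios of 0.17, -0.51 and -0.26 differed in sign. Single WT libraries set its size, since the value was -0.06 without WT replicate 2 and -0.42 without WT replicate 1. The coefficient of variation was 3.15% in KO libraries, below the 10.2% expected from counting, and 25.2% in WT libraries, above the 9.44% expected.

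**Figure D2:**
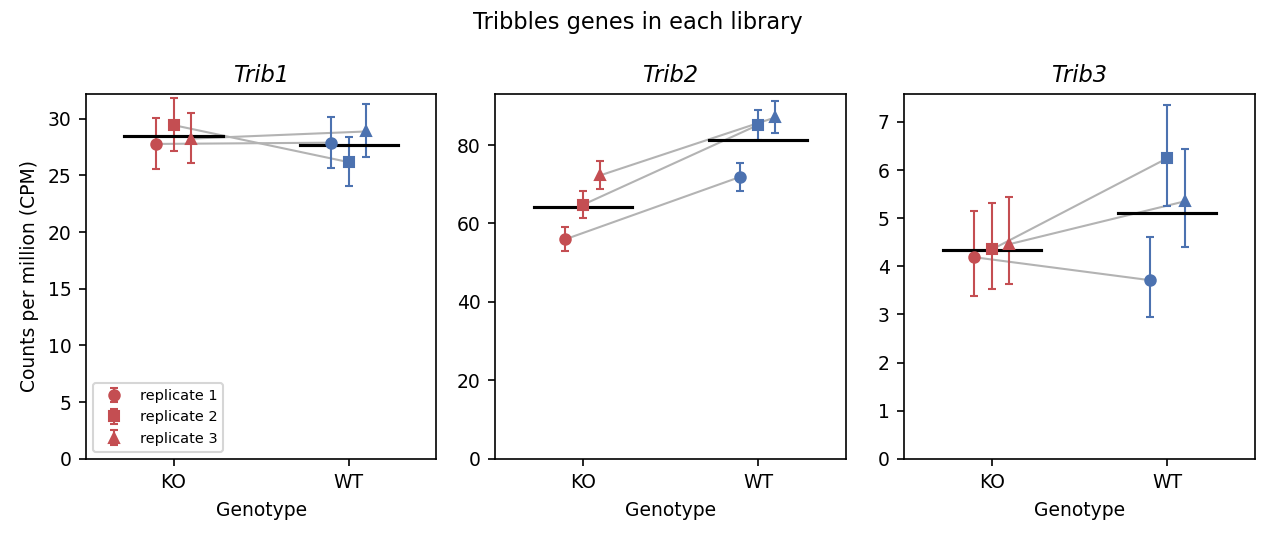
CPM of Trib1, Trib2 and Trib3 in each KO library (red, left) and WT library (blue, right), with exact 95% Poisson intervals, black bars at the group means and grey lines joining libraries of the same replicate number. Trib2 is lower in the KO library on all 3 lines, Trib1 is level between 26.17 and 29.44 CPM, and the Trib3 lines cross.

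The share of the family's summed RPKM taken by Trib2 was 65.6%, 67.7% and 70.5% in KO replicates 1, 2 and 3, and 71.6%, 72.5% and 72.8% in WT replicates 1, 2 and 3. The Trib2 shares did not overlap between the groups, although the Trib2 CPM did; they restate the difference for which Trib2 was chosen. The share of Trib1 averaged 22.8 ± 1.91% in KO testes and 18.6 ± 2.10% in WT testes, and that of Trib3 9.29 ± 0.573% in KO testes and 9.08 ± 1.64% in WT testes (SD, n = 3 each), and both overlapped between the groups. The summed RPKM averaged 22 ± 2.02 in KO testes and 26.2 ± 2.45 in WT testes. In whole testis fewer cells that express a gene and less RNA per cell cannot be told apart.

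Over the 6 libraries, Trib2 and Trib3 were nearer to each other in pattern than either was to Trib1. As a measure of likeness, the root mean square difference of log2 CPM, centred on each gene's own mean, was 0.178 between Trib2 and Trib3, 0.238 between Trib1 and Trib2 and 0.270 between Trib1 and Trib3. For comparison, Trib2 itself varied by a root mean square of 0.219 around its mean, Trib3 by 0.241 and Trib1 by 0.053. Trib1 was nearly level, so its differences from Trib2 and Trib3 mostly restate their own spread. Over 16095 genes with a mean of at least 1 CPM, the median difference was 0.243 from Trib2 and 0.261 from Trib3, both above the 0.178 between these members. Of these genes, 5325 differed from Trib2 by less than its own 0.219, a wider limit than 0.178. The number of genes within 0.178 of Trib2 was not counted.

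Of the 16095 genes compared, the 5 most like Trib2 were Sall3, which encodes a zinc finger transcription factor, the neurexin gene Nrxn2, Notum, which encodes a secreted enzyme acting on Wnt proteins, the adenylyl cyclase gene Adcy6 and the planar polarity gene Prickle3. Their difference from Trib2 was 0.0285 to 0.0565, where the median was 0.243. Sall3 had 1.09, 1.24 and 1.44 CPM in KO replicates 1, 2 and 3, and 1.36, 1.72 and 1.70 CPM in WT replicates 1, 2 and 3. Nrxn2 had 11.9, 12.7 and 15.2 CPM in KO replicates and 14.4, 17.6 and 17.9 CPM in WT replicates, in the same order of numbers. Both have the Trib2 layout, with replicate 1 lowest in each genotype, which follows from how they were picked. Sall3 and Notum averaged 1.26 and 1.45 CPM in KO testes and 1.59 and 1.87 CPM in WT testes. They had fewer reads than Trib3, so counting error limits what their close match can mean. The 6 libraries are shared by all these values, and with so many genes compared some will lie close by chance.

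The 5 genes most like Trib1 were the kinesin gene Kif2c, the replication checkpoint gene Clspn, the mitochondrial carrier gene Slc25a46, Prkar2a, which encodes a regulatory subunit of protein kinase A, and the nucleolar GTPase gene Gnl3. Picked for likeness to a level gene, they were nearly level too. Their difference from Trib1 was 0.0114 to 0.0178, where the median was 0.127. The 5 most like Trib3 were Tbc1d9, Gm8935, the secreted phospholipase gene Pla2g5, the synaptic adhesion gene Lrfn1 and Ttc39a, at 0.0503 to 0.0554 where the median was 0.261. In these 5, as in Trib3, the highest library was WT replicate 2 and the lowest WT replicate 1, which again follows from the choice by likeness. Pla2g5, for example, had 37.2, 41.5 and 40.8 CPM in KO replicates 1, 2 and 3, and 34.7, 54.3 and 45.9 CPM in WT replicates 1, 2 and 3.

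The genes around the family, in 6 lists of 91 genes chosen with earlier results of these data known, gave 89 tested genes. None was called between KO and WT in edgeR, without or with the block, against a background of 0% and 0.0443% of tested genes; DESeq2 and limma voom also called none. At an unadjusted p under 0.05 without the block, 1 of the 89 was lower in KO and 0 were higher, where 1.23% and 0.843% of all tested genes were. With the block, 3 were lower and 3 higher, where 3.89% and 3.59% of all tested genes were. These shares are near the background, and a p that misses the threshold does not show that a gene was unchanged.

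Of the COP1 and CUL4 ubiquitin ligase genes, 8 of 8 were tested and their median log2 fold change was 0.02, against -0.005 for all tested genes. Cop1, the ligase that Tribbles proteins recruit, averaged 1.58 ± 0.0250 RPKM in KO testes and 1.56 ± 0.0586 RPKM in WT testes (SD, n = 3 each). Its log2 fold change was 0.02 ± 0.07 (SE). Per length Cop1 stood below each of the 3 Tribbles genes, and this order rests on the long summed exons the table gives it. Without length it had 27.7 ± 0.437 CPM in KO testes and 27.2 ± 1.03 CPM in WT testes. The members with the smallest p were the scaffold genes Cul4b (0.11 ± 0.07) and Cul4a (0.06 ± 0.06) and the adaptor gene Dda1 (-0.06 ± 0.08).

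Of the genes of proteins that Tribbles bind or help to turn over, 14 of 14 were tested, with a median log2 fold change of 0.01. Cebpa, which encodes the factor destroyed through TRIB1 and TRIB2, had 23.3, 36.7 and 14.3 CPM in KO replicates 1, 2 and 3, and 14.1, 13.8 and 18.7 CPM in WT replicates 1, 2 and 3. KO replicates 1 and 2 were above every WT library and KO replicate 3 was not, and the log2 fold change was 0.67 ± 0.35 (SE). Cebpb had 0.23 ± 0.20 and Cdc25a, a mammalian counterpart of the fly phosphatase String, 0.08 ± 0.07. The summed markers of Leydig cells, macrophages, Sertoli cells and differentiating spermatogonia had the same order as Cebpa over the KO libraries. Leydig sums were 551, 978 and 440 CPM in KO replicates 1, 2 and 3, and 535, 619 and 588 CPM in WT replicates. Macrophage sums were 159, 169 and 146 CPM in KO replicates and 142, 115 and 170 CPM in WT replicates. Of these lists, only the macrophage list had the order of Cebpa in both genotypes. The part of these cells in the Cebpa levels was not tested.

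Of the kinases that Tribbles bind, 11 of 11 were tested, with a median of 0.02 and log2 fold changes between -0.10 and 0.08. Map2k7 had -0.10 ± 0.07 (SE), Mapk8 0.08 ± 0.07 and Mapk14 0.04 ± 0.06. Map2k1, which encodes MEK1, had 0.03 ± 0.07, and Akt1 0.00 ± 0.07. The SE of the 11 values was 0.06 to 0.09.

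Of the genes listed as regulators of Trib2, 8 of 9 were tested, and 6 of them were lower and 2 higher in KO. Their median was -0.05, against -0.005 for all tested genes. The 6 include small values such as that of Smurf1 (-0.01 ± 0.06), so the count alone shows no shared fall. Meis1, a homeobox gene known as an activator of Trib2 in leukaemia, had 17.7, 22.5 and 22.1 CPM in KO replicates 1, 2 and 3, and 21.8, 23.4 and 25.3 CPM in WT replicates 1, 2 and 3. Meis1 was lower in KO in each pair, as were 14.7% of all tested genes, while the groups overlapped. Its log2 fold change was -0.18 ± 0.11 (SE). Its unadjusted p in edgeR was 0.136 without the block and 0.0355 with it, and after adjustment it did not pass in either fit (adjusted p = 1.0 without the block and 0.627 with it). E2f1 had -0.08 ± 0.07 and was also lower in KO in each pair, with log2 ratios of -0.11, -0.08 and -0.06. Lef1 was higher in KO in each pair, with ratios of 0.12, 0.06 and 0.18. Tcf7l1, a Wnt pathway factor, had -0.09 ± 0.10.

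The genes of the ATF4 and CHOP stress response around Trib3 gave 22 of 22 tested, with 6 lower and 16 higher in KO. Their median was 0.05, against -0.005 for all tested genes, and the direction of the list was not tested. Atf4 averaged 55.9 ± 3.35 RPKM in KO testes and 54.0 ± 2.48 RPKM in WT testes, and Ddit3, which encodes CHOP, 7.91 ± 0.610 RPKM in KO testes and 7.67 ± 0.404 RPKM in WT testes (SD, n = 3 each). Their log2 fold changes were 0.05 ± 0.07 and 0.04 ± 0.10 (SE). Ppp1r15a, the stress-induced phosphatase subunit GADD34, had 39.8, 38.1 and 39.9 CPM in KO replicates 1, 2 and 3, and 35.2, 36.5 and 35.4 CPM in WT replicates 1, 2 and 3. It was the only member of the 6 lists whose groups did not overlap, in the direction in which 3.09% of all tested genes did not. Its log2 fold change was 0.14 ± 0.07. Its unadjusted p in edgeR was 0.0696 without the block and 0.0414 with it. After adjustment it passed in neither fit (adjusted p = 0.651 with the block). Slc7a11 had 0.98 ± 0.51, resting on 5.36 CPM in KO replicate 2 where no other library exceeded 2.18 CPM, and Vldlr had -0.25 ± 0.19.

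Of 27 other pseudokinase genes, 26 were tested, with a median log2 fold change of -0.01 and values between -0.22 and 0.09. By mean RPKM over the 6 libraries, 10 of the 27 stood above Trib2, 20 above Trib1 and 23 above Trib3. Stk40, which encodes a pseudokinase related to Tribbles, had 16.9 ± 0.365 RPKM in KO testes and 16.8 ± 0.154 RPKM in WT testes (SD, n = 3 each), close to the level of Trib2. Its log2 fold change was 0.01 ± 0.06 (SE). Nrbp2, a pseudokinase related to nuclear receptor binding protein 1, had 89.1, 93.3 and 83.2 CPM in KO replicates 1, 2 and 3, and 98.3, 119.0 and 91.9 CPM in WT replicates 1, 2 and 3. It had -0.22 ± 0.10 and was not called in edgeR (adjusted p = 1.0 without the block and 0.303 with it). Ephb6 and Ptk7, receptor-type pseudokinase genes, had -0.18 ± 0.12 and -0.11 ± 0.09. Tex14, needed for the bridges between germ cells, had 0.05 ± 0.07.

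**Figure D3:**
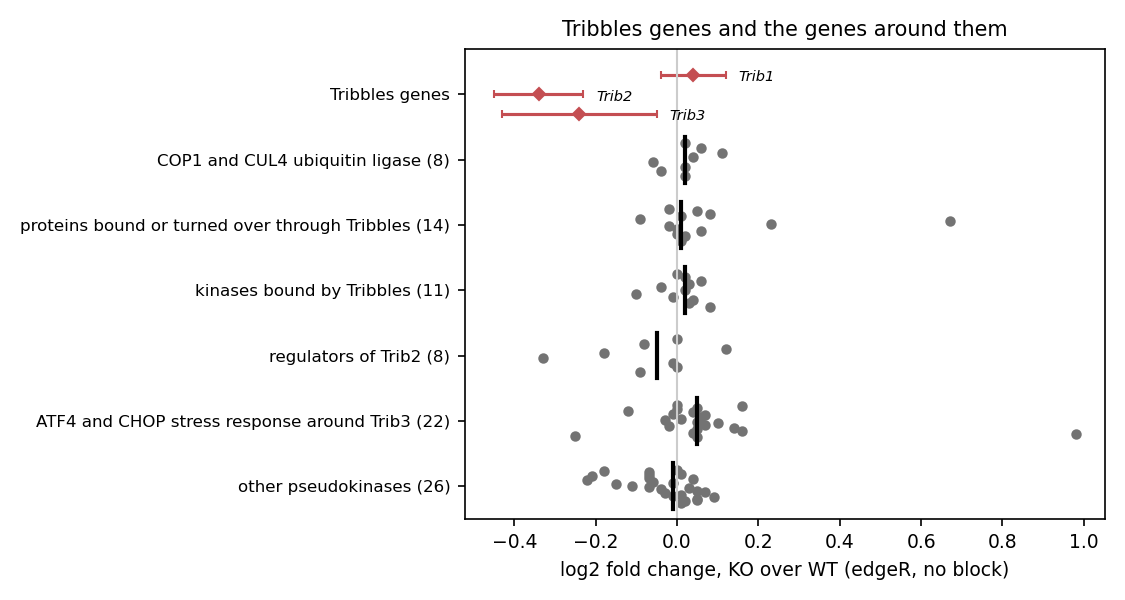
Fitted log2 fold change of KO over WT (edgeR, no block) for the 3 Tribbles genes (red, with SE) and for the tested members of 6 lists (grey points, number tested in brackets, black bars at the medians). Medians lie between -0.05 and 0.05, Trib2 at -0.34 and Trib3 at -0.24 lie to the left of them, and Cebpa at 0.67 and Slc7a11 at 0.98 lie to the right.

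The libraries were checked against their labels and for the markers of their cell types. Ankrd31 had 40.84, 33.15 and 38.02 CPM in KO replicates 1, 2 and 3, and 84.94, 52.29 and 63.25 CPM in WT replicates 1, 2 and 3, with no overlap; the counts cover the whole gene, so they check the genotype only in part. Marker lists of 11 cell types were summed per library, and markers of Sertoli cells (5920 to 6950 CPM) and early meiotic prophase (816 to 1600 CPM) were well detected in every library, as in juvenile testis. Of the epididymis and rete list, Lcn5, Defb20 and Rnase9 stood under 1 CPM in every library, while its sum was 58.8 CPM in WT replicate 3 and at most 8.02 CPM elsewhere. Crisp1, its highest gene, averaged 0.976 CPM in KO testes and 9.95 CPM in WT testes.

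The sums of 3 of the 11 marker lists were lower in KO in all 3 pairs, as Trib2 was. For 8 endothelial markers they ran from 140 to 162 CPM in KO and from 147 to 184 CPM in WT libraries, with log2 pair ratios of -0.07, -0.08 and -0.19. For 6 markers of differentiating spermatogonia they ran from 748 to 791 CPM in KO and from 779 to 848 CPM in WT libraries, with pair ratios of -0.02, -0.10 and -0.15. Ccnd2, the highest of these 6, averaged 215 CPM in KO testes and 261 CPM in WT testes, so a single gene carries much of that difference. In the unblocked fit 5 of the 6 were lower in KO. For the epididymis and rete list the pair ratios were -0.10, -0.20 and -2.88. The Trib2 ratios in the same pairs were -0.36, -0.39 and -0.27, and its fitted log2 fold change was -0.28 without WT replicate 3.

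Replicate 1 of each genotype, which held the lowest Trib2 level, held the highest sum of early meiotic markers. In KO this sum was 1560 CPM against 1090 and 1270 CPM in the other libraries. In WT it was 1600 CPM against 816 and 1050 CPM. Between genotypes its log2 pair ratios were -0.03, 0.42 and 0.28, and the groups overlapped. In the unblocked fit 0 of its 9 markers were lower in KO. Other lists ran with Trib2: the stroma, undifferentiated spermatogonia and epididymis and rete sums rose from replicate 1 to 3 in each genotype. Undifferentiated spermatogonia markers had 310, 325 and 357 CPM in KO replicates and 305, 356 and 371 CPM in WT replicates. Endothelial sums were also lowest in replicate 1 of each genotype. The Sertoli sums overlapped, with 6400 to 6950 CPM in KO and 5920 to 6840 CPM in WT libraries. Whether the cell make-up of the testes had a part in the Trib2 levels was not tested.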

How the data were processed

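1 table with the raw counts of the 6 libraries, not normalized, was deposited; its length column holds summed exon length, per the file headers. Per the labels' protocols, the libraries were strand-specific. The tools were GSNAP, featureCounts 1.6.0 and bcl2fastq 2.19.1 on mm10, per the submitters' processing notes; how strand and multi-mapping reads were handled, and the annotation release, is not given in the sources used here. Of 49763 rows, 92 spike-in rows (1 count in all) were left out, and 49326 of 49671 gene identifiers matched a symbol. Totals were 21014060 to 22706296 counts, and replicates of a group differed by a chi-square per degree of freedom of 7.35 to 13.0, so none was a duplicate.

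edgeR 4.0.16 under R 4.3.3 tested the counts (filterByExpr, TMM, robust quasi-likelihood F test, Benjamini-Hochberg over 18040 genes, threshold 0.05). The SE of an edgeR log2 fold change was derived as its absolute value divided by the square root of F. DESeq2 1.42.0 and limma 3.58.1 voom, other normalizations and filters, GC correction (loess span 0.5; GC of the longest transcript, known for 99.8% of tested genes) and fits without each library or pair were alternatives. The fit was tested on simulated data. Coding stretches came from GENCODE M21 and promoters from RefSeq (GRCm38.p6, Trib2 and Trib3 of the 3 genes matched), read with Biopython 1.88.

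The groups share replicate numbers 1 to 3. Same-number libraries deviated together from their group means (correlations of 0.42, 0.26 and 0.28 for numbers 1, 2 and 3, all above a limit of 0.1), so the numbers were treated as pairs; this comes from the data, since the labels give no litter or day. Named genes were the members, Ankrd31, from each list the 3 members of smallest p, and the 5 genes most like each member. Cop1, Map2k1, Akt1, Lef1, Atf4, Ddit3, Stk40 and Tex14 were named after their values were seen. The members and lists were chosen with earlier results of these data known.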

Additional observations from a re-analysis of the deposited data

How the results depend on the processing

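The count of called genes was 0 without the replicate block and 8 with it, 6 with the block and a GC correction, 15 with DESeq2 and the block and 8 with limma voom and the block, which was added after seeing the data. It was 2 with DESeq2, 1 with no filter on low counts, and the blocked fit gave 63 calls when pair 1 was dropped, 57 for pair 2 and 0 for pair 3. Leaving out single libraries without the block gave 0 in each case. The block changed no call among the listed genes, of which 0 were called under any of 19 alternatives. Trib2 stayed negative in all 19 alternatives (-0.43 to -0.25) and Trib3 too (-0.42 to -0.05). All 19 refit the libraries that chose the family, so the kept signs are a description and add no support. Trib1 lay between -0.02 (with the block, without pair 2) and 0.08. The level differences kept their sign in 9 of 9 alternatives each. With no length they were 1.36 for Trib2 over Trib1, 3.92 for Trib2 over Trib3 and 2.57 for Trib1 over Trib3, and with a pseudocount of 1 RPKM 1.59, 2.48 and 0.89. With same-number pairs as units, added after seeing the data, the values stayed at 1.75, 2.88 and 1.13, and the exact permutation p was 0.25 for each, the smallest possible. Without single libraries they were 1.68 to 1.82 for Trib2 over Trib1, 2.82 to 2.93 for Trib2 over Trib3 and 1.07 to 1.24 for Trib1 over Trib3, where 5 libraries cannot give an exact permutation p under 0.0625. Depth limits Trib3, which had 82 to 142 counts a library.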
